A study of Rattus norvegicus with 35 samples.

Results

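The genes described here are 8 markers of hepatic stellate cells and of the myofibroblasts they can become: Acta2, Tagln, Des, Vim, Pdgfra, Pdgfrb, Thy1 and Lrat. They were chosen by symbol, and 8 of 8 had at least 1 probe set annotated to that gene alone, among 13438 such genes measured in rat liver. Whole-liver RNA from 35 rats was hybridised to 1 Affymetrix array each, in 6 groups. Control rats underwent a sham procedure (n = 5) or hemorrhage followed by resuscitation, written H/R (n = 6). The other 24 rats had secondary biliary cirrhosis from ligation and resection of the common bile duct 4 weeks before the study, and received weekly vitamin K. Of these, 11 received no simvastatin (ligated sham, n = 5, and ligated H/R, n = 6), and 13 received simvastatin, an inhibitor of HMG-CoA reductase. Daily gavage of 5 mg/kg began 3 days ahead of the experiment and ended 1 h before it. Of the treated rats, 5 had the sham procedure (simvastatin sham) and 8 had H/R (simvastatin H/R). Nothing in the labels tells if untreated ligated rats were given vehicle or if control rats had a sham ligation. The design text counts as many rats as there are arrays, so each array was taken as 1 rat.

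Hepatic stellate cells lie between hepatocytes and sinusoidal endothelium and store vitamin A as retinyl esters. In chronic injury they lose these stores, proliferate, become contractile and lay down collagen, a change called activation. Platelet-derived growth factor is their main mitogen and TGF-beta their main fibrogenic signal. In biliary injury, portal fibroblasts around the bile ducts are another known source of myofibroblasts. Several of the 8 genes are not exclusive to these cells: vimentin, for example, is also made by endothelial cells, leukocytes and reactive bile duct cells.

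All values below are the deposited log2 signals of the brightest probe set of a gene, so a difference of 1 is a 2-fold change. Array medians lay between 3.97 and 4.29. The brightest nonspecific control probe of an array served as background. It averaged 4.51 ± 0.41 (SD) in control sham and 4.59 ± 0.39 in control H/R arrays, against 3.64 ± 0.51 in ligated sham, 4.00 ± 0.27 in ligated H/R, 3.26 ± 0.20 in simvastatin sham and 3.32 ± 0.33 in simvastatin H/R arrays. A group mean at or below it is called not above background, and a fold against such a group is given only as a lower bound. All 10 hepatocyte markers measured were above background in every group of this liver tissue. The groups were compared with limma over all 13438 genes with Benjamini-Hochberg adjustment, and a gene passed at an adjusted p below 0.05.

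The first question was how the markers differed between livers after bile duct ligation and control livers. In sham rats 7 of the 8 markers passed as higher with ligation and 0 as lower. The exception was Lrat. The 7 include Thy1, whose values lay near background and whose other probe set ran the other way, by -0.34 (adjusted p = 0.12). Among all 13438 genes, 25.3% passed as higher and 22.4% as lower in this comparison. The median difference of the markers was 0.84, against -0.04 for all genes. After H/R, 5 of 8 rose (Acta2, Tagln, Des, Vim and Pdgfra) and 0 fell, where 24.7% of all genes were higher and 22.3% lower. Simvastatin sham rats against control sham rats gave 6 of 8 higher (28.6% of all genes; 26.5% lower), without Thy1 and Lrat. Simvastatin H/R rats against control H/R rats gave 5 of 8 higher (28.1% of all genes, and 28.1% lower), the same genes as in untreated H/R rats. The arrays of ligated and control groups did not overlap for 4 of 8 markers in sham rats (18.8% of all genes higher without overlap) and 4 after H/R (14.3%), namely Tagln, Des, Vim and Pdgfra in both. With simvastatin they did not overlap for 5 in sham rats, Acta2 in addition (20% of all genes), and for 3 after H/R, without Tagln (15%). Untreated and simvastatin-treated ligated rats share the control arrays in these comparisons, so the counts are not independent of each other. All 11 control arrays carry sample titles whose numbers end in 13, as 0 of 11 untreated ligated arrays do. What this ending stands for is not given, and in untreated rats it cannot be told apart from ligation. Of the simvastatin arrays, 3 sham and 6 H/R arrays share the ending. Within it the same counts of markers passed against controls, 6 in sham rats and 5 after H/R, with differences of 0.73 and 0.75 for Acta2, 3.24 and 2.39 for Tagln, and 3.71 and 3.11 for Vim. RNA from whole liver cannot tell more marker-positive cells from more RNA per cell.

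**Figure D1:**
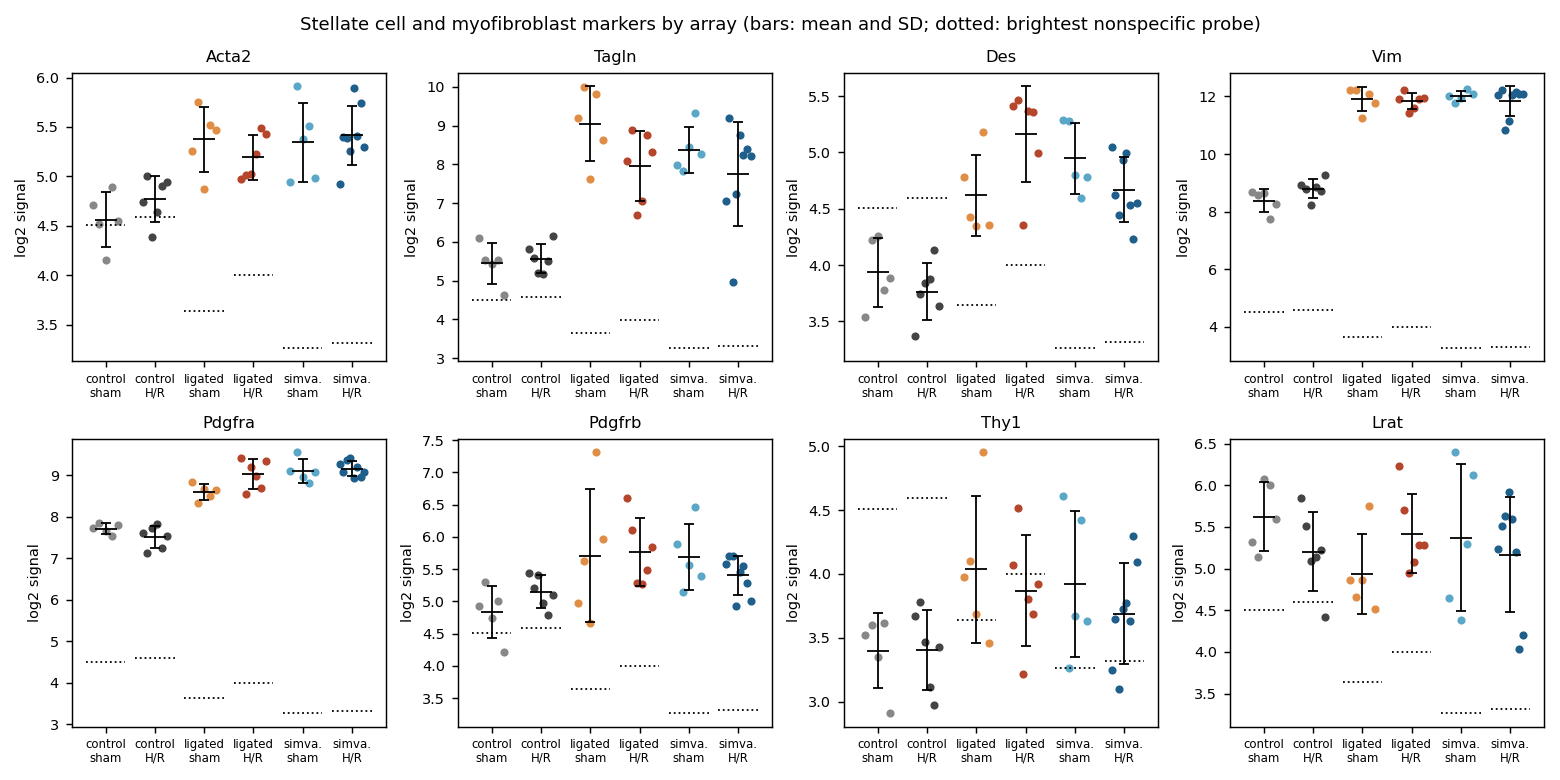
Log2 signal of the 8 markers on each array (points) in the 6 groups, with the group mean and SD (bars) and the mean of the brightest nonspecific probe in each group (dotted); simva. stands for ligated rats given simvastatin. All ligated arrays lie above all control arrays for Vim and Pdgfra, 23 of 24 do for Tagln and Des, and 19 do for Acta2. The groups overlap more widely for Pdgfrb, Thy1 and Lrat.

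Acta2 encodes alpha smooth muscle actin, the standard marker of myofibroblasts and of vascular smooth muscle. Its signal was 4.15, 4.51, 4.55, 4.71 and 4.89 in control sham livers and 4.88, 5.26, 5.46, 5.52 and 5.76 in ligated sham livers. The lowest ligated array fell just inside the control range. The difference was 0.81 ± 0.18 (SE; 1.75-fold, limma adjusted p = 0.00045). After H/R, control livers ranged from 4.38 to 5.00 with a median of 4.82, and ligated livers from 4.97 to 5.48 with a median of 5.12. These ranges also met at their edges, with a difference of 0.42 ± 0.17 (limma adjusted p = 0.037). Simvastatin sham livers (4.94, 4.99, 5.38, 5.51 and 5.91) lay above all control sham livers, by 0.78 ± 0.18 on average. Simvastatin H/R livers ranged from 4.93 to 5.89 with a median of 5.40, and exceeded control H/R livers by 0.65 ± 0.16 (limma adjusted p = 0.00075). Over all groups, 19 of 24 ligated arrays exceeded the highest control array. The control means of Acta2 were only slightly above background (4.56 against 4.51, and 4.77 against 4.59). The ligated H/R call was lost when the arrays were quantile normalized again (0.15, limma adjusted p = 0.51) or centred on their medians (0.27, adjusted p = 0.18). It was also lost without control H/R array 1 (0.42), 3 (0.34) or 4 (0.40), and without ligated H/R array 4 (0.42), 5 (0.36) or 6 (0.37). Quantile normalization also ended the calls in simvastatin sham (0.42, adjusted p = 0.076) and simvastatin H/R rats (0.33, adjusted p = 0.1).

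Tagln encodes transgelin (SM22-alpha), an actin-binding protein of smooth muscle and myofibroblasts. It read 4.63, 5.44, 5.52, 5.53 and 6.10 in control sham livers and 7.61, 8.64, 9.20, 9.80 and 10.00 in ligated sham livers, with no overlap. The difference was 3.60 ± 0.53 (12.2-fold, limma adjusted p = 1.2e-06). Control H/R livers ranged from 5.18 to 6.15 with a median of 5.55, and ligated H/R livers from 6.70 to 8.89 with a median of 8.20. That difference was 2.39 ± 0.49 (5.25-fold, adjusted p = 0.00014), again without overlap. Simvastatin sham livers read 7.82, 7.98, 8.27, 8.45 and 9.34, higher than every control sham array (2.93 ± 0.53). Simvastatin H/R livers ranged from 4.96 to 9.21 with a median of 8.22, and differed from control H/R livers by 2.19 ± 0.46. The low value belonged to array 3, which lay below all 6 control H/R arrays. The next lowest array of its group read 7.05. On the same array Vim was also the lowest of its group (10.85, the others 11.15 to 12.21), and so was the mean of 9 cholangiocyte markers (7.55, the others 7.91 to 9.06). Acta2 (5.39), Des (4.45) and Pdgfra (9.38) on that array lay within the range of the other 7. Thy1 was the lowest of the group there (3.10) and Pdgfrb the highest (5.70). The mean of the hepatocyte markers was the highest of the group (10.84, the others 10.26 to 10.76) and that of the contractile genes the lowest (6.00, the others 6.28 to 6.71). The part of these shifts in the low Tagln value was not tested.

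**Figure D2:**
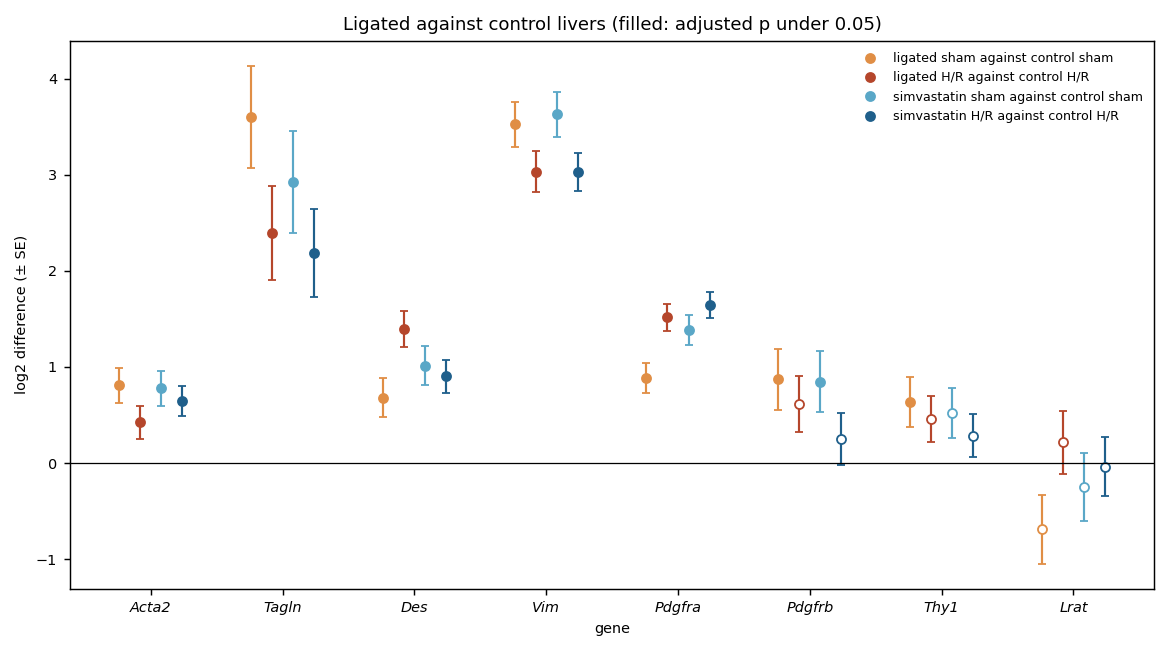
Log2 difference from control livers (± SE) for each marker in the 4 comparisons of ligated with control groups; filled points passed at a limma adjusted p below 0.05 and open points did not. Tagln and Vim differ by 2.19 to 3.63, and Acta2, Des and Pdgfra by 0.42 to 1.65 in all 4 comparisons.

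The intermediate filaments were next. Des encodes desmin, the filament protein of muscle and the classical stellate cell marker in rats. In control sham livers it read 3.54, 3.78, 3.88, 4.23 and 4.26, and in ligated sham livers 4.35, 4.36, 4.43, 4.78 and 5.18. The groups did not overlap, and the difference was 0.68 ± 0.20 (limma adjusted p = 0.0057). Because Des was not above background in either control group, the fold is a bound of at least 1.08. After H/R, control livers ranged from 3.36 to 4.13 (median 3.79) and ligated livers from 4.36 to 5.47 (median 5.36). Here the difference was 1.40 ± 0.18 (limma adjusted p = 1.6e-07; at least 1.48-fold). Simvastatin sham livers read 4.59, 4.78, 4.80, 5.28 and 5.29 (1.01 ± 0.20 above control sham; at least 1.36-fold). Simvastatin H/R livers ranged from 4.23 to 5.05 with a median of 4.58 (0.91 ± 0.17 above control H/R; at least 1.05-fold). None of the 4 comparisons of Des overlapped, and 23 of 24 ligated arrays exceeded the highest control array of either group.

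Vim, the filament protein of mesenchymal cells, had the widest separation of ligated from control arrays. Control sham livers read 7.74, 8.27, 8.59, 8.65 and 8.68, and ligated sham livers 11.27, 11.77, 12.07, 12.23 and 12.23. The difference was 3.53 ± 0.23 (limma adjusted p = 6.1e-14). Control H/R livers ranged from 8.25 to 9.27 (median 8.82), ligated H/R livers from 11.43 to 12.21 (median 11.90) and simvastatin H/R livers from 10.85 to 12.21 (median 12.08). Simvastatin sham livers read 11.78, 11.93, 12.03, 12.07 and 12.28. The lowest of the 24 ligated arrays read 10.85 and the highest of the 11 control arrays 9.27. Across all genes, 7.95% had every ligated array above every control array, and 2 of the 8 markers, Vim and Pdgfra, did.

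The receptors for platelet-derived growth factor came next. Pdgfra encodes the alpha receptor, found on fibroblasts and stellate cells. It read 7.54, 7.66, 7.73, 7.82 and 7.85 in control sham livers and 8.34, 8.50, 8.66, 8.67 and 8.83 in ligated sham livers. The difference was 0.88 ± 0.16 (1.84-fold, limma adjusted p = 2e-05), without overlap. Control H/R livers ranged from 7.14 to 7.83 (median 7.58) and ligated H/R livers from 8.55 to 9.43 (median 9.10), a difference of 1.52 ± 0.14 (2.87-fold, adjusted p = 1.6e-10). Simvastatin sham livers read 8.81, 8.97, 9.08, 9.10 and 9.57, and exceeded control sham livers by 1.38 ± 0.16 (2.61-fold). Simvastatin H/R livers ranged from 8.93 to 9.43 (median 9.15), and exceeded control H/R livers by 1.65 ± 0.13 (3.13-fold). No ligated array of Pdgfra fell into the control range.

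Pdgfrb encodes the beta receptor, the receptor most associated with stellate cell proliferation and with pericytes. The array carried 3 probe sets for it, which disagreed. The brightest, used in the fit, read 4.22, 4.74, 4.93, 5.01 and 5.30 in control sham livers and 4.67, 4.97, 5.63, 5.96 and 7.32 in ligated sham livers. The groups overlapped, with a difference of 0.87 ± 0.32 (1.83-fold, limma adjusted p = 0.025). The value of 7.32 came from ligated sham array 4, and without it the difference was 0.47 (adjusted p = 0.17). The call was also lost without control sham array 5 (0.71, adjusted p = 0.081) or ligated sham array 5 (0.81, adjusted p = 0.055), and under quantile normalization (0.60, adjusted p = 0.12). So it was with arrays centred on their medians (0.68, adjusted p = 0.051) and when only the groups compared were fitted (adjusted p = 0.1). In simvastatin sham livers (5.14, 5.39, 5.56, 5.88 and 6.47) the difference was 0.85 (adjusted p = 0.025), lost without control sham array 5 (0.69) or simvastatin sham array 4 (0.65). That call was also lost under quantile normalization (0.50, adjusted p = 0.2) and with arrays centred on their medians (0.63, adjusted p = 0.063). Ligated H/R livers (5.27 to 6.60, median 5.66) and simvastatin H/R livers (4.93 to 5.70, median 5.51) did not pass against control H/R livers (4.78 to 5.44, median 5.15). Their differences were 0.61 (adjusted p = 0.083) and 0.25 (adjusted p = 0.44), and the latter turned to -0.06 under quantile normalization. The former passed when only the groups compared were fitted (adjusted p = 0.031).

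A second Pdgfrb probe set, 1370642_PM_s_at, separated the groups completely. It read 3.61, 3.75, 3.98, 4.08 and 4.72 in control sham livers and 5.53, 5.89, 6.11, 6.43 and 6.67 in ligated sham livers. The difference was 2.10 ± 0.24 (limma adjusted p = 8e-09 over all 19063 single-gene probe sets; at least 3.07-fold, the control groups being not above background). Against their control groups, also not above background, the folds were at least 2.23 in ligated H/R, 3.05 in simvastatin sham and 2.60 in simvastatin H/R livers. All 24 ligated arrays exceeded the highest control array, 5.03 at the lowest against 4.72. The third, 1391394_PM_s_at, was not above background in the control, ligated sham, ligated H/R or simvastatin H/R groups (0.67 in ligated sham livers, adjusted p = 0.079). With the mean of the 3 probe sets, Pdgfrb also passed in ligated H/R (1.08, adjusted p = 0.00011) and simvastatin H/R livers (0.92, adjusted p = 0.00028). Within groups, the brightest probe set varied with the third (r = 0.76 over 35 arrays, group means removed) more than with the second (r = 0.29).

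**Figure D3:**
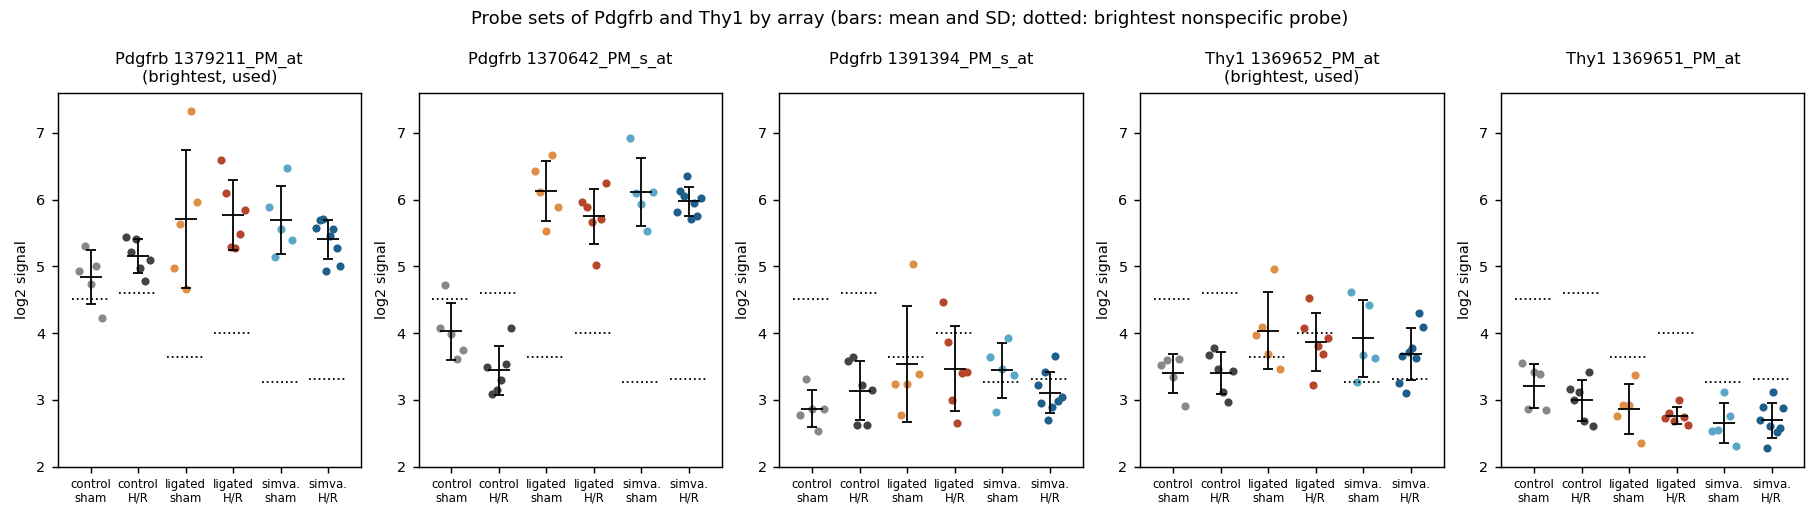
Log2 signal of the 3 Pdgfrb and the 2 Thy1 probe sets on each array (points), with the group mean and SD (bars) and the mean of the brightest nonspecific probe (dotted). Ligated and control arrays separate in the second Pdgfrb probe set, while the Thy1 probe sets lie near or below the dotted lines.

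Thy1 encodes CD90, a surface protein of portal fibroblasts, some T lymphocytes and neurons. Its brighter probe set read 2.91, 3.35, 3.52, 3.60 and 3.62 in control sham livers and 3.46, 3.69, 3.98, 4.10 and 4.96 in ligated sham livers. The difference was 0.64 ± 0.26 (limma adjusted p = 0.044). Control values were not above background and the ligated mean of 4.04 was below the control background, so no fold is given. The call was lost without ligated sham array 4, the highest (0.41, adjusted p = 0.2), and without control sham array 1 (0.67), 3 (0.62) or 5 (0.51) or ligated sham array 1 (0.65) or 2 (0.62). It also ended with the mean of both probe sets (0.15, adjusted p = 0.54), with arrays centred on their medians (0.45, adjusted p = 0.12) and when only the groups compared were fitted (adjusted p = 0.053). Ligated H/R livers ranged from 3.21 to 4.52 (median 3.86) against 2.97 to 3.78 (median 3.45) in control H/R livers, with neither group above background and an adjusted p of 0.11. That comparison passed without ligated H/R array 3 (0.59, adjusted p = 0.044). Simvastatin sham livers (3.26, 3.63, 3.67, 4.42 and 4.61) differed from control sham livers by 0.52 (adjusted p = 0.091), which passed without simvastatin sham array 2 (0.68, adjusted p = 0.032). Simvastatin H/R livers ranged from 3.10 to 4.30 (median 3.69; 0.28, adjusted p = 0.28). The other Thy1 probe set was above background in 0 of 6 groups and ran the other way, by -0.34 in ligated sham (adjusted p = 0.12) and -0.56 in simvastatin sham livers (adjusted p = 0.0098). Values near the nonspecific probe do not settle a direction for Thy1.

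Lrat encodes lecithin retinol acyltransferase, which forms the retinyl esters stored in quiescent stellate cells. It was the 1 marker that passed in none of the comparisons. Control sham livers read 5.14, 5.32, 5.59, 6.00 and 6.07, and ligated sham livers 4.51, 4.66, 4.86, 4.87 and 5.75. All ligated arrays but array 4 lay below the control range, and the difference was -0.69 ± 0.36 (95% interval -1.42 to 0.03, limma adjusted p = 0.11). Without ligated sham array 4 it was -0.90 (adjusted p = 0.048). It also passed as lower when the fit held only the groups compared (adjusted p = 0.036), under quantile normalization (-0.95, adjusted p = 0.026) and with arrays centred on their medians (-0.88, adjusted p = 0.035). Control H/R livers ranged from 4.41 to 5.84 (median 5.18), ligated H/R livers from 4.94 to 6.23 (median 5.28) and simvastatin H/R livers from 4.04 to 5.92 (median 5.37). Simvastatin sham livers were spread from 4.38 to 6.40, the values between being 4.65, 5.30 and 6.13. These groups overlapped widely, with differences from their controls of 0.22 (adjusted p = 0.61), -0.04 (adjusted p = 0.93) and -0.25 (adjusted p = 0.56). The first of these turned to -0.02 under quantile normalization. Of 24 ligated arrays, 3 exceeded the highest control array.

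The promoters of Acta2, Vim and Lrat are shown because Acta2 defines the myofibroblast, Vim separated ligated from control arrays most widely and Lrat did not pass. Each run is the 250 bases before the transcript start, 5′ to 3′ on the gene's own strand, from RefSeq (GRCr8). Of the 8 markers, 5 had an entry there (Acta2, Des, Vim, Pdgfra and Lrat). Acta2 lies at chr1:241172504-241172753, minus strand, Vim at chr17:81577011-81577260, plus strand and Lrat at chr2:170571213-170571462, minus strand. Capitals mark matches to the CArG box, the DNA element bound by serum response factor, with at most 1 mismatch in its A/T core, or to TATAAA, both searched on both strands.
Acta2: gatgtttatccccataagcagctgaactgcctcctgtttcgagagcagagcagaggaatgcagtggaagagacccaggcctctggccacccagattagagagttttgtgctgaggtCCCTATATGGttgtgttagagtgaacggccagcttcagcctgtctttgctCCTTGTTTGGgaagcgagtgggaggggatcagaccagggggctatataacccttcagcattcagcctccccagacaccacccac
Vim: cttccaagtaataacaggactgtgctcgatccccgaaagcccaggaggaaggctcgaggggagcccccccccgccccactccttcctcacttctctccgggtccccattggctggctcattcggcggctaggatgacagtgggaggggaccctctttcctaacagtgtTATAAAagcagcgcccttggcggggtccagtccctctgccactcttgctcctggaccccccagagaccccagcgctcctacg
Lrat: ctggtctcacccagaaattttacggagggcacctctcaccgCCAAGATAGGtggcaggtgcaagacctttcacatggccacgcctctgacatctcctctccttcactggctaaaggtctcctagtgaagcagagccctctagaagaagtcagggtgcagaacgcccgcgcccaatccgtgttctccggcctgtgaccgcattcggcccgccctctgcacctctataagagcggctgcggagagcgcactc
Acta2 held 2 such CArG-like matches, starting 134 and 84 bases before the transcript start, and Lrat held 1 at 209 bases. Vim had TATAAA 82 bases before the start and no CArG-like match. Des had neither, and none of these 4 windows held a CArG box without a mismatch. The window of Pdgfra does not lie at the outermost annotated start of that gene and is not described. Among 33469 RefSeq windows of the same length, 8.08% held a CArG box with at most 1 mismatch, 1.5% an exact one and 12.9% TATAAA. These matches describe letters in a window and say nothing of binding.

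The group means were put in order for each marker. A step between neighbours was compared with the larger SD of the neighbouring groups. For Acta2, Tagln, Des, Vim and Pdgfra, the step from the lowest ligated to the highest control group exceeded that SD (0.42, 2.19, 0.68, 3.03 and 0.88). Among the ligated groups 1 step did so, for Pdgfra between ligated H/R (9.04 ± 0.36) and ligated sham livers (8.60 ± 0.19). For Tagln the order ran from ligated sham (9.05 ± 0.96) over simvastatin sham (8.37 ± 0.59) and ligated H/R (7.97 ± 0.90) to simvastatin H/R (7.76 ± 1.34), with no step beyond the SD. Des ran from ligated H/R (5.16 ± 0.43) to simvastatin sham (4.95 ± 0.32), simvastatin H/R (4.67 ± 0.29) and ligated sham (4.62 ± 0.36), again with no such step. Among control groups, Vim in H/R livers (8.80 ± 0.33) stood above sham livers (8.39 ± 0.40) by a step of 0.41. No neighbouring groups were separated for Pdgfrb, Thy1 or Lrat.

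The other question was whether hemorrhage with resuscitation, or simvastatin, moved the markers. With limma, 0 of 8 markers passed in any of the 5 comparisons within control or within ligated rats. The share of all genes that passed was 0.856% for H/R in control rats, 0.134% for H/R in ligated rats, 0% for H/R in simvastatin-treated rats, 0.781% for simvastatin in sham rats and 1.35% for simvastatin after H/R. At an unadjusted p below 0.05 the numbers of markers were 0, 3, 0, 1 and 1 in that order. In ligated rats, H/R livers differed from sham livers by 0.54 for Des (95% interval 0.15 to 0.94, limma adjusted p = 0.32), 0.44 for Pdgfra (0.13 to 0.74, adjusted p = 0.28) and -1.08 for Tagln (-2.12 to -0.04, adjusted p = 0.46; -0.17 with a block for the title ending). The blocked Tagln value rests on the shared endings, 03 (1 sham and 2 H/R arrays) and 06 (3 sham arrays and 1 H/R array). In control rats Pdgfra ran the other way, by -0.20, and Tagln differed by 0.13. Des differed by -0.17 there, but neither control group was above background, so no direction is read from it. The effect of H/R in ligated rats minus that in control rats was 0.64 for Pdgfra (limma adjusted p = 0.66). For Des it was 0.71 (limma adjusted p = 0.75), a value that rests in part on control signals not above background. Here 0 of 8 markers passed (0.00744% of all genes), with 2 markers at an unadjusted p below 0.05.

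Simvastatin sham livers differed from ligated sham livers by 0.50 for Pdgfra (0.19 to 0.82, limma adjusted p = 0.16), with overlapping arrays. The arrays of these groups share no title ending, so in sham rats simvastatin cannot be told apart from the ending. Simvastatin H/R livers differed from ligated H/R livers by -0.49 for Des (-0.84 to -0.14, adjusted p = 0.16). The Des difference passed without ligated H/R array 3, the lowest of its group at 4.36 (-0.65, adjusted p = 0.025). Under a block for the ending of the numbers in the sample titles, whose meaning the labels do not give, it was 0.10. That value rests on ending 12, the only ending both groups share, with 2 arrays in each group. The H/R effect on Des with simvastatin minus that without was -0.82 (-1.36 to -0.28, adjusted p = 0.64), and again 0 of 8 markers passed (0.00744% of all genes; 1 marker at an unadjusted p below 0.05). For Acta2, the intervals allowed changes from -0.40 to 0.34 with simvastatin in sham rats and from -0.09 to 0.54 after H/R. For Tagln they were wider, from -1.77 to 0.41 and from -1.13 to 0.72. A missed threshold does not show that the groups were alike.

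**Figure D4:**
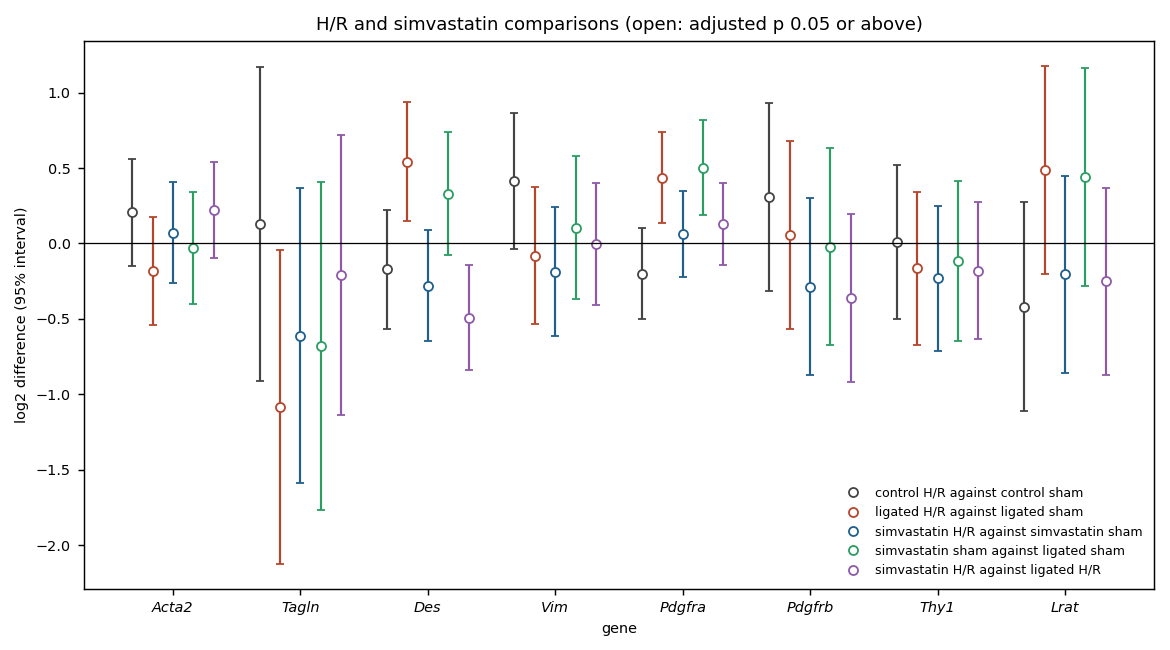
Log2 difference with 95% interval for each marker in the 3 comparisons of H/R with sham and the 2 of simvastatin with untreated ligated rats; every point is open because none passed at a limma adjusted p below 0.05. The intervals of Tagln are the widest. Those of Des and Pdgfra exclude 0 in 2 comparisons each without passing the adjustment. So does that of Tagln for H/R in untreated ligated rats (-2.12 to -0.04).

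Genes related to the markers were taken from lists. Their counts in ligated sham against control sham livers stand beside the shares over all genes (25.3% higher, 22.4% lower). Of 15 measured smooth muscle and contractile genes, 10 rose and 0 fell in ligated sham against control sham livers, with a median of 1.11 (0.50 with dim genes at their bounds). Myh10, a non-muscle myosin heavy chain, rose 8.96-fold. Flna, the actin crosslinker filamin A, rose 5.93-fold. Mylk, myosin light chain kinase, rose 3.46-fold and Actn1, alpha-actinin, 3.42-fold. Of the serum response factor genes, Srf itself differed by 0.00 (adjusted p = 0.99), its cofactor Mrtfa rose 1.46-fold (limma adjusted p = 0.011) and Myocd was not above background. After H/R, simvastatin-treated rats had 1 contractile gene higher than untreated ligated rats, Cald1, caldesmon (0.55, limma adjusted p = 0.038), with overlapping arrays. In that comparison 1.35% of all genes passed, 182 genes, and 13 with a block for the title ending. Whether Cald1 or other listed genes passed under alternative fits was not examined.

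Matrix genes of activated stellate cells rose in 9 of 10 cases in the same sham comparison, with a median of 2.10 (1.88 with dim genes at their bounds). Col5a2 rose 6.80-fold, Sparc 4.58-fold and Col1a2 4.02-fold, all genes of collagen or collagen assembly. Col1a1 rose at least 3.72-fold. It was the 1 gene of the 10 that passed with simvastatin after H/R (-0.92, limma adjusted p = 0.02), with overlapping arrays. There 1.35% of all genes passed. Of 9 TGF-beta ligands, receptors and targets, 7 rose and 1 fell. Tgfb2 rose at least 12.5-fold, Ccn2 (connective tissue growth factor) 10.5-fold, Ltbp1 9.37-fold and Tgfb3 5.71-fold. Of 3 ligands for the platelet-derived growth factor receptors, Pdgfa rose at least 4.18-fold and Pdgfd rose by 1.14 without a bound above 1-fold. Pdgfc differed by 0.44 (adjusted p = 0.17).

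Genes of quiescent stellate cells split: of 16 measured, 7 rose and 6 fell in ligated sham livers, with a median of 0.04. Cygb, cytoglobin, rose at least 5.96-fold, whereas Angptl6 fell by 2.96, Vipr1 by 2.28 and Ecm1 by 1.85 on the log2 scale. Of 15 retinoid genes, 5 were higher and 4 lower, close to the shares over all genes (25.3% and 22.4%). Aldh1a2, which makes retinoic acid, rose 11.9-fold. Lpl, lipoprotein lipase, rose 4.25-fold. Rdh10, a retinol dehydrogenase, fell by 1.49 and Pnpla3, a lipase for retinyl esters and triglycerides, fell by 2.98 (at least 6.44-fold lower). Pnpla2, adipose triglyceride lipase, was higher with simvastatin after H/R (0.61, limma adjusted p = 0.043), with overlapping arrays, where 1.35% of all genes passed.

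Portal fibroblast genes rose in 7 of 11 cases and 0 fell, where 25.3% of all genes were higher and 22.4% lower. Most of them were not above background in control livers. Their median was 0.89, and 0 with dim genes at their bounds. Loxl1, a crosslinker of elastin, rose at least 21.0-fold, Mfap4 at least 7.41-fold and Fbn1, fibrillin-1, 5.93-fold. Entpd2, the ectonucleotidase of portal fibroblasts, differed by 1.07 (limma adjusted p = 9.3e-05) without a bound above 1-fold. Of 7 pericyte genes 3 rose and 1 fell, with a median of 0.12, beside the same shares over all genes. Rgs5 (8.74-fold), Mcam (at least 1.88-fold) and Abcc9 (2.10-fold) rose and Anpep fell by 0.98.

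Markers of other cell types were read beside the shares over all genes in the same comparison (25.3% higher, 22.4% lower). Of 9 cholangiocyte markers, 8 rose and 0 fell. The range of their mean level was 4.08 to 5.36 over the control arrays of both groups and 7.55 to 9.14 over the ligated arrays. Krt19, the keratin of bile duct cells, rose 28.1-fold and Epcam 17.0-fold. Of 9 macrophage markers 5 rose and 1 fell, of 8 endothelial markers 3 rose and 2 fell, near the shares over all genes, and of 8 T lymphocyte markers 4 rose. Only 1 of these 8 T lymphocyte markers was above background in control sham livers, and 4 were in ligated sham livers. Of 5 mesothelial markers 1 rose and 0 fell, with a median of -0.05 (0 with dim genes at their bounds). The 1 that rose was Msln, at least 30.4-fold. Wt1 (0.59, limma adjusted p = 0.06) and Gpm6a (-1.40, adjusted p = 0.074) did not pass. Nor did Krt14 (-0.22), which was not above background in either group. Of 4 neural and Schwann cell markers, S100b rose at least 3.93-fold. Ncam1 passed as higher and Sox10 as lower, but neither was above background in ligated or control sham livers. Of 10 hepatocyte markers 5 fell and 0 rose. The part of these cell types in the differences of the 8 markers was not tested.

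Among the 24 ligated arrays, with the group means removed, the markers fell into different patterns. Of 28 pairs of markers, 5 passed (Pearson r, permutation of arrays within groups, two-sided, Benjamini-Hochberg adjusted over the pairs). Tagln and Vim varied together (r = 0.875, rho = 0.825, n = 24, permutation p = 1e-05, the smallest the shuffles allow, adjusted p = 0.00028), and r was 0.801 without the 2 arrays farthest from the median of Tagln. In single groups r was 0.942 in the 6 ligated H/R arrays and 0.854 in the 8 simvastatin H/R arrays. Tagln and Thy1 gave r = 0.594 (rho = 0.663, permutation p = 0.002, adjusted p = 0.028), and Vim and Thy1 r = 0.528 (rho = 0.558, permutation p = 0.0078, adjusted p = 0.044). Pdgfra ran against both Tagln (r = -0.558, rho = -0.685, permutation p = 0.0031, adjusted p = 0.029) and Vim (r = -0.478, rho = -0.51, permutation p = 0.0075, adjusted p = 0.044). Without the 2 farthest arrays these 4 values were 0.568, 0.548, -0.549 and -0.406. Only the pair of Tagln and Vim passed without simvastatin H/R array 3 (r = 0.799, adjusted p = 0.00084, n = 23, permutation test). In that set Tagln and Pdgfra gave r = -0.576 and Tagln and Thy1 r = 0.554, each with a permutation adjusted p of 0.07. With all 35 arrays, or with median-centred arrays, Vim and Thy1 did not pass (permutation adjusted p = 0.093 and 0.12). Tagln and Thy1 passed in both (0.0088 and 0.033). Vim and Pdgfra did not pass with all 35 arrays (r = -0.325, permutation adjusted p = 0.13). By rho this pair also missed the threshold in the 24 ligated arrays (permutation adjusted p = 0.052). Pdgfrb and Thy1 passed only with all 35 arrays (r = 0.561, permutation adjusted p = 0.032). Thy1 values lay near background, and in ligated H/R arrays not above it, which limits what these pairs show.

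Tagln and Vim also varied with the mean of the 9 cholangiocyte markers. The r was 0.904 for Tagln (rho = 0.894) and 0.964 for Vim (rho = 0.924), each with a permutation p of 1e-05 and an adjusted p of 0.00016 over 48 relations of 8 markers with 6 lists. Without the 2 farthest arrays r was 0.860 and 0.947, and without simvastatin H/R array 3 it was 0.862 and 0.950. In ligated H/R arrays alone r was 0.939 and 0.988, and in simvastatin H/R arrays 0.895 and 0.985. Both also varied with the contractile genes (r = 0.809 for Tagln, rho = 0.79, permutation adjusted p = 0.00016; r = 0.752 for Vim, rho = 0.699, adjusted p = 0.00072). They ran against the hepatocyte markers (r = -0.697, rho = -0.764, permutation adjusted p = 0.00077; r = -0.683, rho = -0.728, adjusted p = 0.00096). Without the 2 farthest arrays these 4 values were 0.785, 0.737, -0.704 and -0.796. With the matrix genes of activated stellate cells, r was 0.312 for Tagln (rho = 0.341, permutation adjusted p = 0.22) and 0.352 for Vim (rho = 0.361, adjusted p = 0.15).

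For Acta2, the myofibroblast marker, r with the cholangiocyte markers was 0.303 (rho = 0.328, permutation adjusted p = 0.26) and with the matrix genes 0.373 (rho = 0.25, adjusted p = 0.24). Acta2 and Des passed by Pearson r with 0 of 6 lists. By Spearman's rho alone, 5 further relations passed. Acta2 ran against the endothelial markers (rho = -0.554, permutation adjusted p = 0.04; r = -0.472, adjusted p = 0.11). Pdgfra ran with the endothelial markers (rho = 0.624, adjusted p = 0.025; r = 0.555, permutation adjusted p = 0.076). It ran against the cholangiocyte (rho = -0.524; r = -0.491) and contractile lists (rho = -0.547; r = -0.451), each with a permutation adjusted p of 0.042 for rho. The brightest Pdgfrb probe set ran with the cholangiocyte markers (rho = 0.521, permutation adjusted p = 0.042, and r = 0.454, adjusted p = 0.11). The other Pdgfrb probe sets were not compared with the lists. Without simvastatin H/R array 3, the rho of Acta2 with endothelial markers no longer passed (permutation adjusted p = 0.051). Nor did that of Pdgfra with cholangiocyte (0.14) or contractile genes (0.1). Those of Pdgfra with endothelial (0.023) and Pdgfrb with cholangiocyte markers (0.0088) still passed. The values of Thy1 lay near background, and in ligated H/R arrays not above it, which limits its relations. Thy1 passed with the contractile genes (r = 0.664, rho = 0.69, permutation adjusted p = 0.0069), the hepatocyte markers (r = -0.631, rho = -0.677, adjusted p = 0.02) and the cholangiocyte markers (r = 0.566, rho = 0.631, adjusted p = 0.029). Lrat passed with the macrophage markers (r = 0.56, rho = 0.564, permutation adjusted p = 0.037). Without the 2 farthest arrays these 4 values were 0.543, -0.606, 0.608 and 0.456. Without simvastatin H/R array 3, 8 of the 10 relations with lists passed again, all but that of Thy1 with cholangiocyte and of Lrat with macrophage markers, and Pdgfrb with cholangiocyte markers passed in addition (r = 0.622, rho = 0.69, permutation adjusted p = 0.04).

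**Figure D5:**
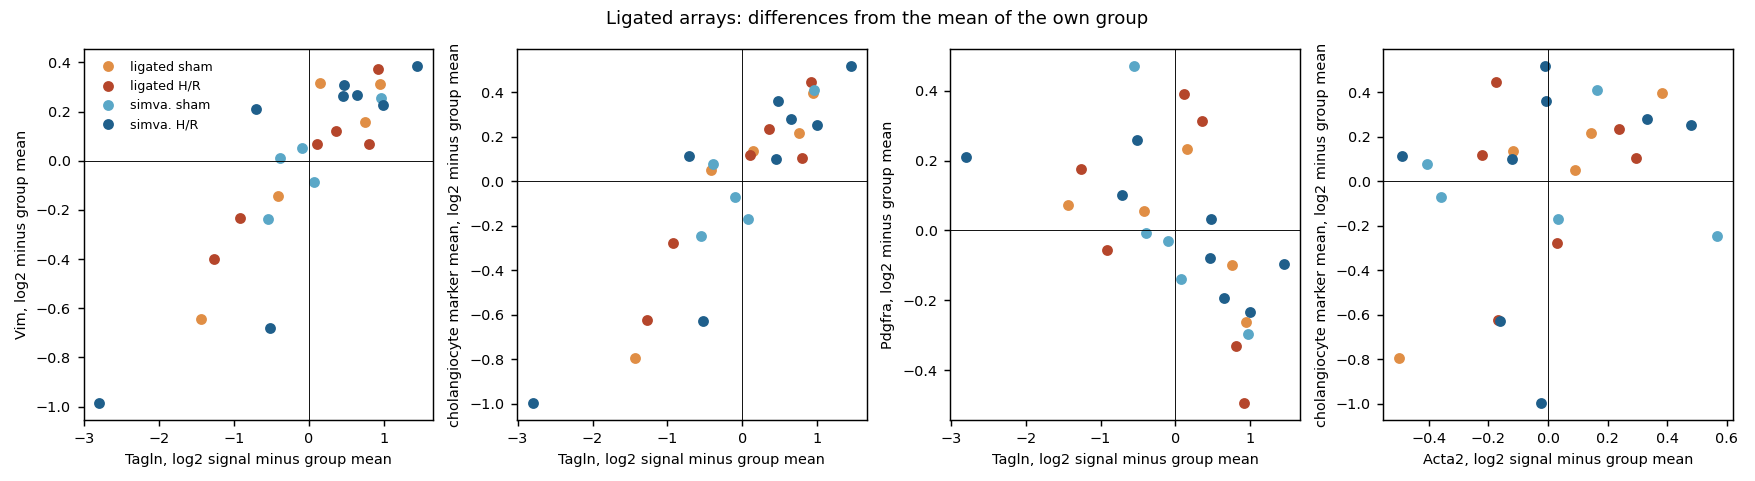
Each point is 1 of 24 ligated arrays, plotted as its log2 difference from the mean of its own group: Vim against Tagln, the mean of 9 cholangiocyte markers against Tagln, Pdgfra against Tagln, and the cholangiocyte mean against Acta2. The cholangiocyte mean rises with Tagln (r = 0.904) and shows little order with Acta2 (r = 0.303); the simvastatin H/R array at the far left of the Tagln panels is array 3.

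For each marker the 3 genes of most similar variation were taken, by Pearson r over all 35 arrays with group means removed and among about 9253 genes above background in the ligated groups. These values describe the arrays and carry no test. Vim was closest to Anxa5 (annexin A5, r = 0.927), Tagln2 (transgelin-2, r = 0.899) and Tmem43 (r = 0.876). Tagln was closest to S100a6 (a calcium-binding protein, r = 0.913), Spint2 (an epithelial protease inhibitor, r = 0.912) and Fads3 (r = 0.893). The brightest Pdgfrb probe set was closest to Kmt2e (r = 0.814), Snrnp70 (r = 0.812) and Pabpn1 (r = 0.812), the latter pair being RNA-processing genes of the nucleus. The second Pdgfrb probe set, examined after its values were seen, was closest to the thrombin receptor F2r (r = 0.743), Tcf4 (r = 0.736) and the endothelial receptor Tie1 (r = 0.71). Lrat was closest to Emb (r = 0.666), Itgb2, an integrin of leukocytes (r = 0.652), and Ifitm1 (r = 0.608). Thy1 was closest to Fhod1, a formin that acts on actin (r = 0.767), Arhgap27 (r = 0.698) and Map4 (r = 0.696). The closest gene was Polr2c for Acta2 (r = 0.609), Cd82 for Des (r = 0.638) and Pcsk5 for Pdgfra (r = 0.669).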

How the data were processed

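Total liver RNA of 35 rats was measured on Affymetrix arrays. The deposited table holds normalized log2 signals for 31139 probe sets, values from 1.51 to 13.79; how background and scale were corrected is not stated in the labels or file headers used here, and the labels name only a standard Affymetrix labelling protocol. The deposited log2 values were used as they stand. Platform annotation gave 1 gene symbol to 19063 probe sets (572 had several, 11504 none), updated through Entrez IDs to RefSeq. Each of 13438 genes was represented by its brightest probe set. limma 3.58.1 (R 4.3.3) was fitted with 1 mean per group over all 35 arrays, and p-values were Benjamini-Hochberg adjusted per comparison over all genes (threshold 0.05). Correlations used 100000 permutations within groups. Precision is limited by 5 to 8 arrays a group; array signals give no counting depth. All 8 markers are named, with the 3 genes most similar to each, or only the closest for Acta2, Des and Pdgfra. Of each list, up to 4 genes of smallest p in ligated sham against control sham livers are named, and up to 3 that passed for H/R or simvastatin, not all of them here. Members and lists were chosen with earlier results of these data known. Alternatives were other fits, scalings, filters, probe set rules and leaving out each array. The limma script was tested on simulated data. No scan date or batch is given in the labels.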

Additional observations from a re-analysis of the deposited data

Results flagged for a closer look

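The highest of the 5 ligated sham arrays in Lrat, array 4, read 5.75, and the nearest other array read 4.87. Its gap to that array was 0.713 of the whole range of the group, against Dixon's 95% critical value of 0.71. It was the 1 such value among 48 combinations of marker and group, and chance alone marks about 1 in 20. The same array was also the highest of its group in Pdgfrb (7.32), Thy1 (4.96) and Des (5.18). Its median over all probe sets was the highest of the group as well (4.29, the lowest being 4.11). No other array carries its title ending, 04. The part of the array median and of the ending in these high values was not tested.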

How the results depend on the processing

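Of 1853 marker differences under alternatives, 1750 kept their direction and side of the threshold, 29 lost the threshold, 10 gained it and 64 changed sign, 16 of these under other settings and 48 on leaving out 1 array. Tagln, Des, Vim and Pdgfra kept their direction and passed in all alternatives run for the 4 comparisons with control livers. No block for the title ending could be fitted for untreated ligated against control rats or for simvastatin sham against ligated sham rats, which share no ending. For simvastatin-treated against control rats the fit within the shared ending was added after seeing the data. The cause of the changes was not tested. Array weights turned Thy1 in simvastatin H/R against simvastatin sham (0.0646), Tagln (0.013) and Vim (0.13) in simvastatin H/R against ligated H/R, and Vim (0.10) and Thy1 (0.17) in the difference of H/R effects with and without simvastatin. Quantile normalization turned Lrat in ligated H/R against control H/R (-0.0216) and Pdgfrb in simvastatin H/R against control H/R (-0.0562). The mean of all probe sets turned Thy1 in simvastatin sham (-0.0181) and simvastatin H/R (-0.0094) against their controls, in control H/R against sham (-0.10) and in the difference with simvastatin (0.0392), and Pdgfrb in control H/R (-0.0032) and ligated H/R (-0.13) against sham. The block for title endings turned Vim (0.31) and Thy1 (0.44) in ligated H/R against ligated sham and Des (0.10) in simvastatin H/R against ligated H/R. In the latter comparison the block rests on the 2 arrays of each group with ending 12.

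Leaving out 1 array at a time changed the sign of 18 differences, of which 0 had passed. The ranges were -0.0308 to 0.21 (Acta2), -0.45 to 0.0533 (Lrat) and -0.0112 to 0.18 (Pdgfra) for simvastatin H/R against simvastatin sham, and -0.19 to 0.13 (Lrat) for simvastatin H/R against control H/R. For simvastatin sham against ligated sham they were -0.17 to 0.0706 (Acta2), -0.28 to 0.38 (Pdgfrb), -0.29 to 0.11 (Thy1) and -0.0567 to 0.18 (Vim). For ligated H/R against ligated sham they were -0.21 to 0.46 (Pdgfrb) and -0.31 to 0.0646 (Thy1), and for control H/R against control sham -0.0768 to 0.29 (Tagln) and -0.11 to 0.0947 (Thy1). For simvastatin H/R against ligated H/R they were -0.46 to 0.19 (Tagln) and -0.0832 to 0.14 (Vim), and the number of markers that passed ran from 0 to 1. For the difference of H/R effects they were -0.52 to 0.15 (Pdgfrb) and -0.32 to 0.0569 (Thy1) between ligated and control rats, and -0.29 to 0.11 (Thy1) and -0.19 to 0.0533 (Vim) with and without simvastatin.

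Without simvastatin H/R array 3, an alternative chosen after seeing the data, 1 pair of markers passed in place of 5. With all 35 arrays or median-centred arrays 4 did. With all 35 arrays these included Pdgfrb and Thy1, a pair that had not passed in the ligated arrays. Over all genes, H/R in control rats gave 115 genes, 11 when only its groups were fitted, and 50 to 190 on leaving out 1 array. H/R in ligated rats gave 18, then 3 with its groups only, 43 with array weights, 4 with the title block and 2 to 45. Simvastatin in sham rats gave 105, then 22, 397 with weights, and 66 to 168. Simvastatin after H/R gave 182, then 748 with weights, 13 with the title block, and 100 to 342. H/R with simvastatin gave 0 with limma (725 at an unadjusted p below 0.05), and 6 with weights. The differences of effects gave 1 each, and 0 to 5. Centring on array medians moved the median of all genes in the comparisons with control livers to between -0.26 and -0.19. No paired analysis was possible because the labels give no replicate numbers shared between groups. Des and Thy1 lay near the nonspecific probe, which limits their folds.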
